A study of Callithrix jacchus with 4 samples.

Results

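The neurexins, neuroligins and LRRTM proteins join the presynaptic to the postsynaptic membrane, and 8 of their autosomal genes were compared between FMR1 mutant and wild-type newborn marmoset forebrain. The genes were taken by symbol from the 35205 rows of a table of read counts: the neurexins NRXN2 and NRXN3, the neuroligins NLGN1 and NLGN2, and the leucine-rich repeat organizers LRRTM1, LRRTM2, LRRTM3 and LRRTM4. Each of the 8 had a row and passed the low-count filter, as did 16956 genes in all. Other genes of these families were not analysed here.

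At postnatal day 5, 2 libraries came from FMR1 mutant common marmosets (Callithrix jacchus), made by CRISPR/Cas9, and 2 from wild-type ones. FMR1 makes FMRP, which binds RNA, holds back the translation of many neuronal mRNAs, and is lost in fragile X syndrome. The labels do not state the mutation's sequence, the zygosity, sex or litter, or whether each library came from its own animal. The p-values therefore take libraries as replicates, with each gene's spread estimated largely from the other genes tested. Cerebral cortex, striatum and hippocampus are named in the study's design as included forebrain regions, while each library's own label gives its tissue only as brain. The table is of bulk tissue, in which fewer cells of a type and less RNA per cell cannot be told apart.

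Neurexins sit in the presynaptic membrane, and their extracellular domains bind a set of postsynaptic and secreted partners. Neuroligins are the best known of these partners. NLGN1 is enriched at excitatory synapses and NLGN2 at inhibitory ones in rodent brain. LRRTM proteins are postsynaptic neurexin ligands of excitatory synapses. LRRTM1 and LRRTM2 bind neurexins that lack a particular alternatively spliced insert, and LRRTM3 and LRRTM4 also bind the heparan sulfate chains that neurexins and glypicans carry. Each neurexin gene makes long and short proteins from separate promoters and many splice forms, none of which a count per gene can separate.

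Total counts were 13153036 and 13455702 in mutant replicates 1 and 2, and 13256200 and 12331639 in wild-type replicates 1 and 2. The 8 genes together took 0.159% and 0.166% of all counts in the mutant libraries, against 0.175% and 0.178% in the wild-type libraries. FMR1 itself was counted 1062 and 1603 times in the mutant libraries, against 1144 and 966 times in the wild-type libraries, so its RNA does not check the genotype labels. Neuronal markers were abundant in every library. The 6 pan-neuronal markers with a row summed to 7091 to 7140 CPM in mutant and 6645 to 6909 CPM in wild-type libraries. CPM is the usual abundance unit of counts scaled by library size. Of those 6, 5 had a log2 fold change, mutant over wild-type, below 0 (median -0.06). The exception, STMN2, was 3059 and 2902 CPM in the mutant libraries, against 2560 and 2232 CPM in the wild-type libraries. Of 5 hindbrain markers, 4 were at 0 in every library and the fifth, EN2, had 1 count in wild-type replicate 2. Wild-type replicate 1 stood apart in the thalamic marker TCF7L2, with 118 and 121 counts in the mutant libraries, against 1272 and 139 in wild-type replicates 1 and 2. The thalamic markers LHX9, GBX2 and PRKCD were also highest in that library (115, 62 and 487 counts). LHX2 was not, at 126 and 117 CPM in the mutant libraries and 97 and 99 CPM in wild-type replicates 1 and 2. Values without wild-type replicate 1 are therefore also given where a call among the 8 genes or the adhesion genes depends on it. No such value is given for marker genes, so whether their calls depend on that library is not shown. Mutant replicate 1 stood apart in the choroid plexus marker TTR, with 1244 counts, against 87 in mutant replicate 2. Wild-type replicates 1 and 2 had 8 and 89 counts of TTR. CLIC6 and KCNJ13, also of choroid plexus, were highest in mutant replicate 1 too (57 and 43 counts), but OTX2 was highest in wild-type replicate 1 (78 counts).

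NRXN3 was the 1 gene of the 8 that changed, and it was lower in the mutant libraries. It was counted 1415 and 1487 times in the mutant libraries, against 2086 and 1879 times in the wild-type libraries. These are 108 and 110.3 CPM in the mutant libraries and 157 and 153 CPM in the wild-type libraries. The groups did not overlap, and the distance between their means was many times the distance between replicates. NRXN3 averaged 109 ± 1.63 CPM (SD, n = 2) in mutant and 155 ± 3.09 CPM (SD, n = 2) in wild-type libraries, a difference of -29.6%. The log2 fold change, mutant over wild-type, was -0.51 (SE 0.12, 95% interval -0.75 to -0.27), which passed edgeR's quasi-likelihood test (Benjamini-Hochberg adjusted p = 0.0132 among all genes tested).

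Of the 8 genes, 1 passed in the lower direction and 0 in the higher direction. Among all genes tested, 2.23% passed in either direction, 1.57% lower and 0.661% higher. At an unadjusted p under 0.05 the count was likewise 1 of the 8, against 13.4% of all genes. DESeq2 and limma-voom also called NRXN3 lower (adjusted p = 0.00497 and 0.0190) and called 0 of the 8 higher. The call of NRXN3 depended on single libraries more than its size did. With 1 library left out and the same genes tested, its log2 fold change stayed between -0.53 and -0.49. It passed in 1 of those 4 fits, the one without wild-type replicate 2 (adjusted p = 0.0292), and missed the threshold without mutant replicate 1 (0.0763), mutant replicate 2 (0.0552) or wild-type replicate 1 (0.0768).

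NRXN2, the other neurexin, differed by much less. It was counted 9908 and 10249 times in the mutant libraries, against 10925 and 10343 times in the wild-type libraries. Scaled for depth these were 756 and 760.5 CPM in the mutant libraries and 824 and 842 CPM in the wild-type libraries, again without overlap. At -0.14 (SE 0.11, 95% interval -0.36 to 0.09, adjusted p = 0.653), the log2 fold change did not pass. Non-overlap alone is common with 2 libraries a group: 43.1% of all genes tested had it, 21.8% with the mutant libraries lower and 21.4% with them higher. Among the 8 genes it held for 3, NRXN2, NRXN3 and NLGN2, each lower in the mutant libraries.

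**Figure D1:**
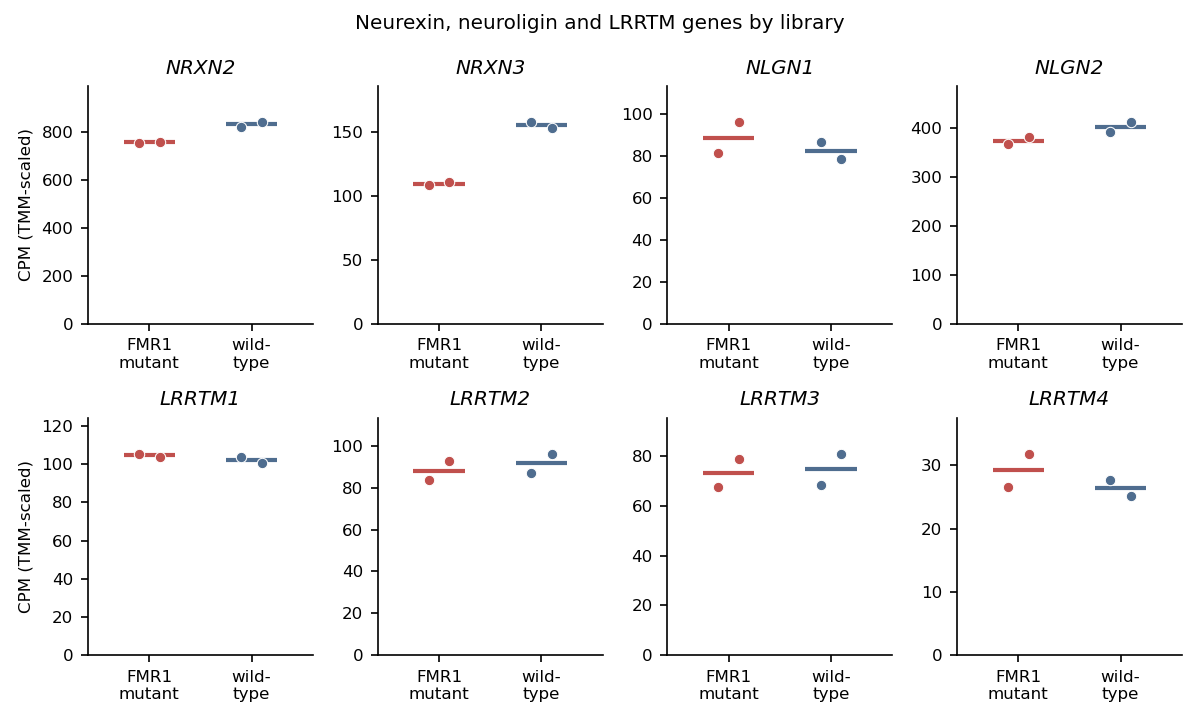
Depth-scaled abundance of each gene in every library. Each panel has CPM on a linear axis from 0, with points for the 2 FMR1 mutant libraries (red, left) and the 2 wild-type libraries (blue, right) and a bar at each group mean. NRXN3 shows 108 and 110.3 CPM in mutant libraries against 157 and 153 CPM in wild-type libraries, while NLGN1 and the 4 LRRTM genes overlap between groups.

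The balance between the neurexins shifted with NRXN3. Within a library, the counts of NRXN3 were 0.143 and 0.145 times those of NRXN2 in the mutant libraries, against 0.191 and 0.182 times in the wild-type libraries. The ratio averaged 0.144 ± 0.00161 in mutant and 0.186 ± 0.00655 in wild-type libraries (SD, n = 2 each), a log2 difference of -0.37. It needs no scaling between libraries, and gene length cancels when it is set side by side between them, though the ratio itself says nothing of how many molecules of each neurexin there are. The ratio is given as a description, with no test. The difference lay between -0.41 and -0.34 when any 1 library was left out. Added together, the neurexin counts came to 864 and 871 CPM in the mutant libraries, against 981 and 995 CPM in the wild-type libraries.

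Neither neuroligin passed the test. NLGN2, the neuroligin of inhibitory synapses, was counted 4826 and 5143 times in the mutant libraries, against 5201 and 5067 times in the wild-type libraries. Its abundance was 368 and 382 CPM in the mutant libraries and 392 and 413 CPM in the wild-type libraries. The groups did not overlap, with both mutant libraries below both wild-type libraries, and the log2 fold change was -0.10 (SE 0.11, 95% interval -0.33 to 0.13, adjusted p = 0.766).

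NLGN1, the neuroligin of excitatory synapses, was counted 1065 and 1292 times in the mutant libraries, against 1143 and 960 times in the wild-type libraries. At 81.3 and 95.9 CPM in the mutant libraries and 86.2 and 78.2 CPM in the wild-type libraries, the groups overlapped. The log2 fold change was 0.11 (SE 0.13, 95% interval -0.15 to 0.37, adjusted p = 0.786). Its sign rests on mutant replicate 2, the highest library, without which the value was -0.01. The ratio of NLGN1 to NLGN2 counts was 0.221 and 0.251 in the mutant libraries, against 0.2198 and 0.189 in the wild-type libraries. The lower mutant ratio and the higher wild-type ratio were thus almost equal.

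None of the 4 LRRTM genes passed, and all 4 overlapped between groups. LRRTM1, which was counted 1382 and 1397 times in the mutant libraries against 1376 and 1239 times in the wild-type libraries, varied least of the 4. It stood at 106 and 104 CPM in the mutant libraries and 104 and 101 CPM in the wild-type libraries, with a log2 fold change of 0.03 (SE 0.12, 95% interval -0.21 to 0.28, adjusted p = 0.955). LRRTM2, which helps keep AMPA receptors at the synapse in rodent neurons, had 1095 and 1250 counts in the mutant libraries, against 1156 and 1184 counts in the wild-type libraries. Scaled, it was 83.6 and 92.8 CPM in the mutant libraries and 87.2 and 96.4 CPM in the wild-type libraries, and its log2 fold change was -0.06 (SE 0.12, 95% interval -0.31 to 0.20, adjusted p = 0.906). For both genes the difference between the group means was within the spread of the libraries.

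LRRTM3 was counted 886 and 1062 times in the mutant libraries, against 906 and 994 times in the wild-type libraries. Each group held a low and a high library, with 67.6 and 78.8 CPM in the mutant libraries and 68.3 and 80.9 CPM in the wild-type libraries. Its log2 fold change was -0.03 (SE 0.13, 95% interval -0.30 to 0.24, adjusted p = 0.967). LRRTM4 was the least counted of the 8, with 349 and 429 counts in the mutant libraries against 367 and 309 counts in the wild-type libraries. It was 26.6 and 31.8 CPM in the mutant libraries and 27.7 and 25.2 CPM in the wild-type libraries, with a log2 fold change of 0.15 (SE 0.16, 95% interval -0.18 to 0.47, adjusted p = 0.762). Mutant replicate 2 was the highest library for LRRTM4 and also for NLGN1.

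**Figure D2:**
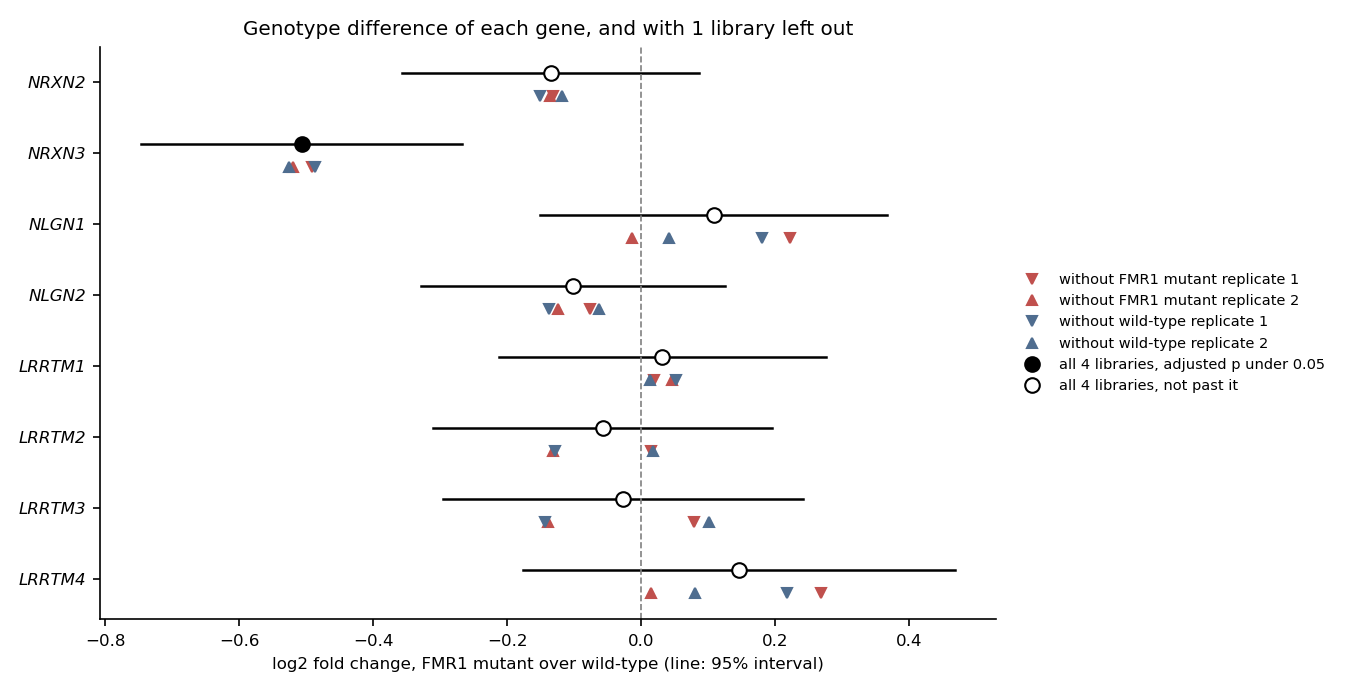
Log2 fold change, FMR1 mutant over wild-type, of the 8 genes. Circles with lines are the values and 95% intervals from all 4 libraries (filled where the adjusted p was under 0.05), and triangles are the values with 1 library left out. The NRXN3 values stay between -0.53 and -0.49, and the intervals of the other 7 genes all include 0, reaching -0.36 for NRXN2 and 0.47 for LRRTM4.

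As a family the LRRTM genes were steady. Their summed abundance was 283 and 307 CPM in the mutant libraries, against 287 and 303 CPM in the wild-type libraries. LRRTM1 made up 37.2% and 33.8% of the LRRTM counts in the mutant libraries, against 36.2% and 33.3% in the wild-type libraries. LRRTM2 made up 29.5% and 30.2% in the mutant libraries, against 30.4% and 31.8% in the wild-type libraries, the 1 share of the 4 whose groups did not overlap, by a margin smaller than the spread within either group. LRRTM3 held 23.9% and 25.7% in the mutant libraries, against 23.8% and 26.7% in the wild-type libraries. LRRTM4 held 9.40% and 10.4% in the mutant libraries, against 9.65% and 8.29% in the wild-type libraries. These shares compare libraries and not genes, since longer transcripts give more counts.

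**Figure D3:**
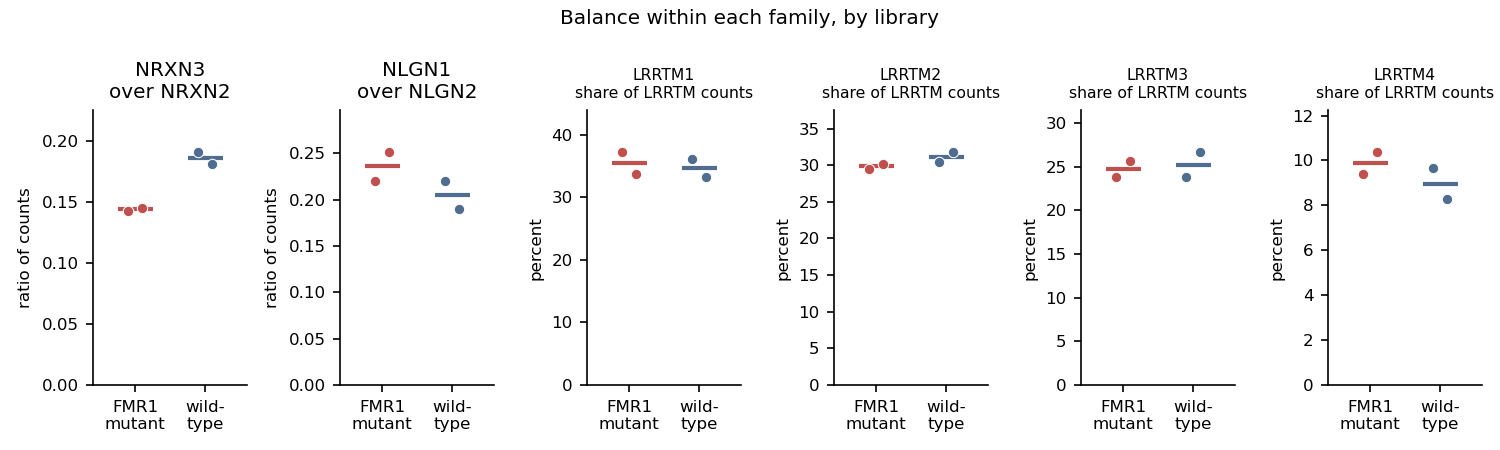
Balance within each family by library, with linear axes from 0. The left pair of panels shows the ratio of NRXN3 to NRXN2 counts and of NLGN1 to NLGN2 counts, and the other 4 show each LRRTM gene as a percentage of LRRTM counts. Points are libraries (red, FMR1 mutant, left; blue, wild-type, right) and bars are group means. The NRXN3 to NRXN2 ratio averages 0.144 in mutant and 0.186 in wild-type libraries, and the LRRTM shares stay close between groups.

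Of the LRRTM genes, 3 lie inside an alpha-catenin gene in the RefSeq annotation (assembly calJac240_pri, used here for neighbours alone): LRRTM1 in CTNNA2, LRRTM2 in CTNNA1 and LRRTM3 in CTNNA3. Alpha-catenins tie cadherins to actin. No source used here states whether the authors' counting used the strand, so reads of a nested gene and of its host may not be fully separated. The hosts did not pass either: CTNNA2 was 314 and 281 CPM in the mutant libraries against 301 and 308 CPM in the wild-type libraries, and CTNNA1 was 84.4 and 87.6 CPM in the mutant libraries against 71.5 and 77.9 CPM in the wild-type libraries (log2 fold change 0.20, adjusted p = 0.514). CTNNA3 was counted only 13 and 19 times in the mutant libraries, against 33 and 26 times in the wild-type libraries (log2 fold change -0.93, SE 0.47, adjusted p = 0.383). NRXN3, NLGN2 and LRRTM4 overlap no other gene in that annotation.

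The wider adhesion machinery was read from 6 lists with 80 genes, of which 79 were tested. Of these, 1 rose, 3 fell and 75 did not pass, a share of 5.06% called against 2.23% of all genes. The median log2 fold change of the 79 was -0.07, against 0.00 over all genes tested. Among secreted neurexin ligands, 2 of 15 fell and 0 rose (list median -0.06). They were CBLN1 and CBLN4, cerebellins that bind neurexins from the synaptic cleft. CBLN1 had 85 and 80 counts in the mutant libraries, against 215 and 108 counts in wild-type replicates 1 and 2 (log2 fold change -1.01, SE 0.26, adjusted p = 0.0333). CBLN4 had 113 and 98 counts in the mutant libraries, against 217 and 145 counts in wild-type replicates 1 and 2 (log2 fold change -0.83, SE 0.22, adjusted p = 0.0394).

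The highest library of both cerebellins was wild-type replicate 1, the library with 1272 counts of TCF7L2. Without it the log2 fold change of CBLN1 was -0.50 (adjusted p = 0.557) and that of CBLN4 was -0.57 (adjusted p = 0.373), so neither call remained. Both calls were also lost without either mutant library (CBLN1 adjusted p = 0.225 and 0.271 without mutant replicates 1 and 2, CBLN4 0.125 and 0.275) and by DESeq2 (0.175 for CBLN1 and 0.226 for CBLN4) and voom (0.0672 and 0.0615). NRXN3 missed the threshold in those same 3 fits with 1 library left out, and its log2 fold change without wild-type replicate 1 was -0.49.

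Among 13 intracellular partners and regulators, 1 rose and 0 fell (median -0.09). The risen gene was MDGA1, a membrane-anchored immunoglobulin protein that binds neuroligins and blocks their contact with neurexins. It was counted 963 and 1262 times in the mutant libraries, against 674 and 651 times in the wild-type libraries, and averaged 83.6 CPM in mutant and 51.9 CPM in wild-type libraries. MDGA1 had a log2 fold change of 0.69 (SE 0.14, adjusted p = 0.00259), and of 0.50 (adjusted p = 0.110) without mutant replicate 2, its highest library. Its paralog MDGA2 did not pass and had a value below 0 (log2 fold change -0.27, adjusted p = 0.585). The difference between the paralogs was not tested.

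None of 11 other membrane partners passed by edgeR (3 at an unadjusted p under 0.05). Of the 11, 10 had a value below 0 and the median was -0.19. The smallest p values of the 11 were those of the calsyntenins CLSTN3 (log2 fold change -0.29, adjusted p = 0.194) and CLSTN1 (-0.23, adjusted p = 0.327). Over all 16956 genes tested, 8598 had a value below 0 and 8358 above 0, and 13.4% had an unadjusted p under 0.05. Among 7 RNA-binding proteins that regulate neurexin splicing, 0 passed (1 at an unadjusted p under 0.05), 6 had a value above 0 and the median was 0.18. KHDRBS3, which controls a neurexin splice insert in mouse brain, came nearest at 203 and 217 CPM in the mutant libraries, against 163 and 155 CPM in the wild-type libraries (log2 fold change 0.40, SE 0.12, adjusted p = 0.0554). DESeq2 did call KHDRBS3 (adjusted p = 0.0367), and limma-voom did not (adjusted p = 0.0676). With 1 library left out its log2 fold change lay between 0.36 and 0.45. NOVA2, a neuronal splicing factor, was next (0.21, adjusted p = 0.437).

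Adhesion systems that work beside the neurexins held 1 call. Among 11 teneurins, FLRT and SynCAM proteins, 1 fell and 0 rose (median -0.12). It was FLRT1, a leucine-rich repeat protein that binds the presynaptic latrophilins. It had 383 and 485 counts in the mutant libraries, against 674 and 699 counts in the wild-type libraries (log2 fold change -0.72, SE 0.14, adjusted p = 0.00293), and -0.58 (adjusted p = 0.0977) without mutant replicate 1. None of the 22 LAR-type phosphatases and their ligands passed by edgeR (2 at an unadjusted p under 0.05, median -0.06). SLITRK6, one of those ligands, had 3 and 15 counts in the mutant libraries, against 48 and 11 counts in wild-type replicates 1 and 2. Its log2 fold change was -1.74 (adjusted p = 0.321), and -0.40 without wild-type replicate 1. IL1RAP, which binds PTPRD, had a log2 fold change of -0.40 (adjusted p = 0.279).

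**Figure D4:**
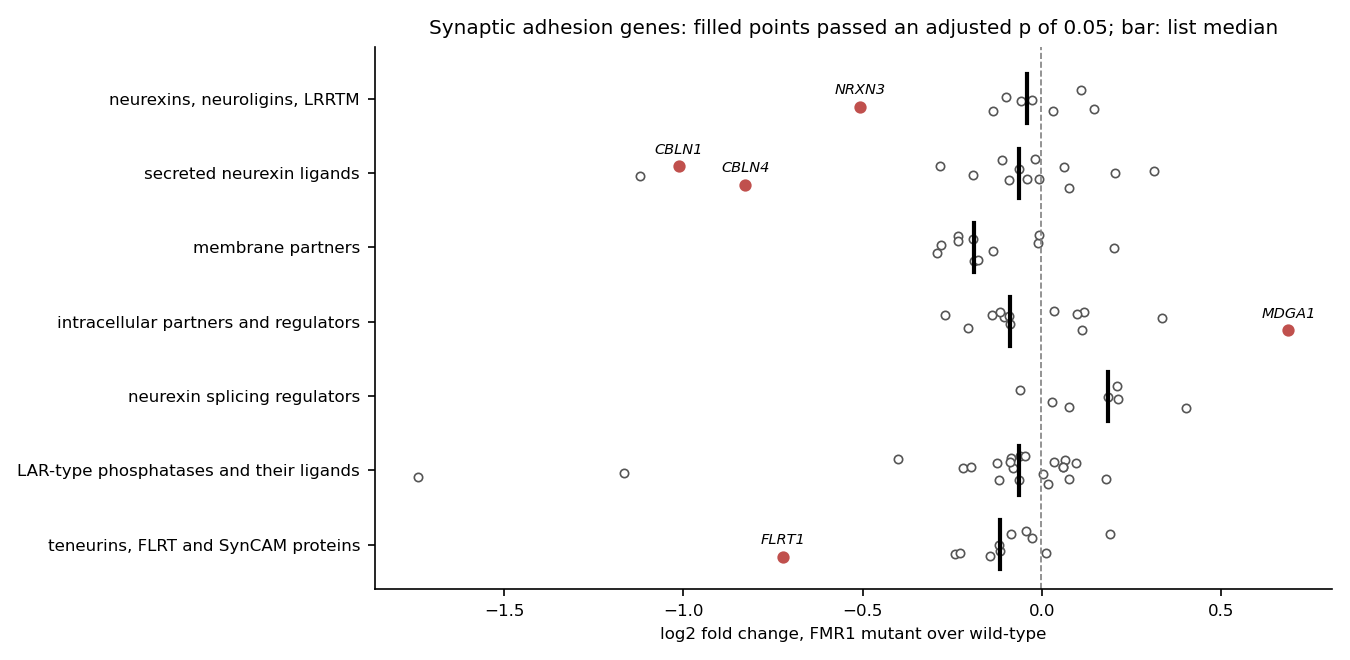
Log2 fold change, FMR1 mutant over wild-type, of the 8 genes (top row) and of 79 other adhesion genes in 6 lists. Each point is a gene, spread vertically to avoid overlap, filled where it passed an adjusted p of 0.05, each bar is a list median, and the dashed line is the median of all genes tested. The called genes are NRXN3, CBLN1, CBLN4 and FLRT1 at lower and MDGA1 at higher values, and the splicing regulators have the highest median, 0.18.

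Several marker lists also differed between the groups, and their values stand here beside those of NRXN3. The 6 inhibitory neuron markers summed to 481 and 490.1 CPM in the mutant libraries, against 532 and 546 CPM in the wild-type libraries. GAD1, the first of that list, was 199 and 194 CPM in the mutant libraries against 212 and 215 CPM in the wild-type libraries. GAD2, named after its value was seen, was the 1 member of the 6 that passed (log2 fold change -0.46, adjusted p = 0.0352). The list went both ways, with 3 of the 6 above 0, DLX2 highest among them (0.39, adjusted p = 0.402), and a median of -0.05. The 5 excitatory neuron markers summed to 1842 and 1799 CPM in the mutant libraries, against 1552 and 1782 CPM in the wild-type libraries. Of the 5, 1 rose (NEUROD6, log2 fold change 0.41, adjusted p = 0.0469), 4 had a value above 0, and the median was 0.16. SLC17A7, the vesicular glutamate transporter of cortical neurons, overlapped at 1139 and 1079 CPM in the mutant libraries and 952 and 1201 CPM in the wild-type libraries, as did the general neuronal marker RBFOX3 at 365 and 325 CPM in the mutant libraries and 339 and 392 CPM in the wild-type libraries. Markers of newborn neurons were higher, at 1870.4 and 2023 CPM in the mutant libraries against 1673 and 1381 CPM in the wild-type libraries, and 2 of 5 rose (DCX and, named after its value was seen, CD24).

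Glial markers were lower in the mutant libraries. The 7 markers of mature oligodendrocytes summed to 1285 and 1234 CPM in the mutant libraries against 3383 and 3353 CPM in the wild-type libraries, and all 7 fell, with MBP at 508 and 454 CPM in the mutant libraries against 1408 and 1470.4 CPM in the wild-type libraries. The 6 astrocyte markers summed to 3069 and 3411 CPM in the mutant libraries, against 4372 and 4214 CPM in the wild-type libraries, and 1 of them fell. GFAP, an astrocyte filament, was 803 and 931 CPM in the mutant libraries against 1239 and 1037 CPM in the wild-type libraries and did not pass. Among 5 markers each, 1 fell for oligodendrocyte precursors (PDGFRA, first of the list, did not pass), 3 fell for microglia, CSF1R among them, and 0 passed by edgeR for endothelium (2 at an unadjusted p under 0.05), where 4 of the 5 had a value below 0 (median -0.24) and CLDN5, the first of the list, was the exception at 0.04. The 5 striatal markers overlapped, at 276 and 329 CPM in the mutant libraries and 339 and 318 CPM in the wild-type libraries, and 0 passed by edgeR (1 at an unadjusted p under 0.05). The part of these shifts in the NRXN3 difference was not tested.

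**Figure D5:**
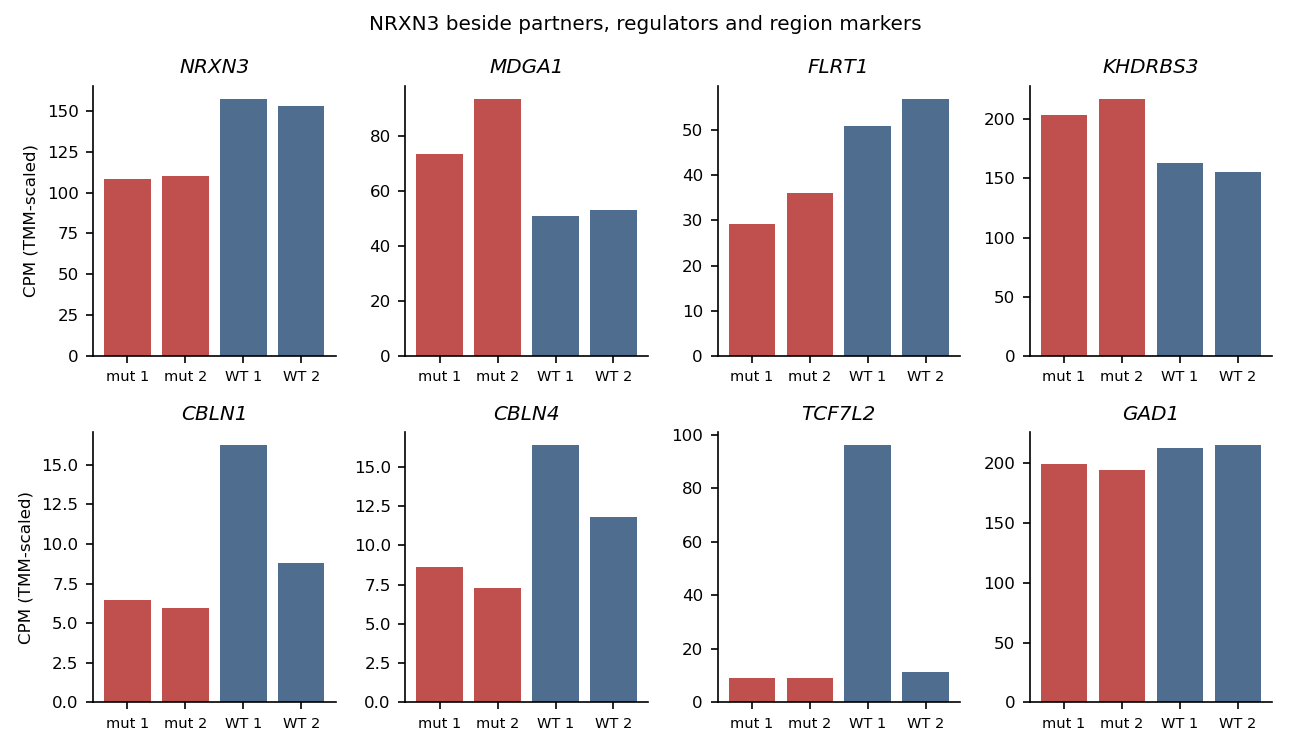
CPM in each library of NRXN3, MDGA1, FLRT1, KHDRBS3, CBLN1, CBLN4, the thalamic marker TCF7L2 and the inhibitory neuron marker GAD1. Bars are single libraries on linear axes from 0 (mut, FMR1 mutant, red; WT, wild-type, blue). CBLN1, CBLN4 and TCF7L2 peak in wild-type replicate 1, whereas NRXN3 is 157 and 153 CPM in the wild-type libraries and 108 and 110.3 CPM in the mutant libraries.

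Likeness of pattern was measured as the root mean square difference of log2 CPM, each gene centred on its own mean, over the 4 libraries. It was computed for the 3 genes with the smallest p against 86 genes, the other 7 and the 79 adhesion genes, and with so few libraries it is a description. Nearest to NRXN3 were CLSTN3 (0.11) and IL1RAP (0.14), against a median of 0.26 over the 86 genes. Among all genes tested, 880 were at least as near to NRXN3 as IL1RAP. NRXN2 was nearest to CADM1 (0.01) and NLGN2 (0.03), and LRRTM4 to NLGN1 (0.02) and PTPRD (0.05). The same counts were 22 for CADM1 and 93 for NLGN2, and 6 for NLGN1 and 170 for PTPRD.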

How the data were processed

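Poly(A) RNA was made into directional libraries after TRIzol extraction and DNase I treatment, per the labels' protocols. Trimmomatic 0.38 and STAR 2.7.10a are named in the submitters' processing notes. How reads were counted, on which build and annotation and with which strand setting, is not stated in the labels. Raw whole-number counts per gene, without normalization, were deposited by the authors for 35205 genes.

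The analysis used edgeR 4.0.16 under R 4.3.3. A minimum count of 10 in filterByExpr left 16956 genes. TMM scaling was followed by the robust quasi-likelihood test between groups (2 residual and a median of 31.6 prior degrees of freedom), with p-values adjusted by Benjamini-Hochberg across those genes and a threshold of 0.05. The SE is the size of the log2 fold change over the square root of F. Any adjusted p given with no tool named comes from this edgeR test. CPM uses TMM-scaled library sizes. Chi-square per degree of freedom between replicates was 6.90 (mutant) and 7.28 (wild-type) over genes with at least 10 counts, so replicates differed by more than sampling noise.

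The biological coefficient of variation was 11.4%. The test was tested on simulated counts first. The 8 genes and the lists were chosen with earlier results of these data known. All 8 genes were named. From each adhesion list every gene past the threshold was named, or the 2 with the smallest unadjusted p where none passed. From a marker list the rule named the first gene with a row where the summed list did not overlap, plus TCF7L2. MDGA2, EN2, CD24, GAD2, NEUROD6, DLX2 and the alpha-catenins CTNNA1 to CTNNA3 were added after their values were seen. So were STMN2, the choroid plexus markers TTR, CLIC6, KCNJ13 and OTX2, and the thalamic markers LHX9, GBX2, PRKCD and LHX2. Alternatives were RLE and upper-quartile scaling, DESeq2 1.42.0 on all rows, limma-voom (limma 3.58.1), robust = FALSE, no filter, a mean of at least 1 CPM, a replicate block, each library left out with the same genes tested, and an adjusted p of 0.1. No sequence is printed for want of a sequence table.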

Additional observations from a re-analysis of the deposited data

How the results depend on the processing

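NRXN3 passed in 9 of 12 alternative fits, each with the log2 fold change between -0.53 and -0.49. With 1 library left out and the same genes tested, it missed the threshold in 3 of 4 fits (adjusted p between 0.0292 and 0.0768, values -0.53 to -0.49). With the low-count filter run again on the remaining libraries, an alternative chosen after seeing the data, it passed in 3 of 4 (-0.52 to -0.49) and missed only without wild-type replicate 1 (adjusted p = 0.0756). The count of lower genes among the 8 was accordingly 0 to 1 when 1 library was left out. None of the other 7 passed in any of the 12 fits. Among fits without 1 library, NLGN1 lay between -0.013 and 0.22, LRRTM2 between -0.13 and 0.018, LRRTM3 between -0.14 and 0.10, the LRRTM1 share difference between -0.95 and 2.52 percentage points and that of LRRTM3 between -1.91 and 0.956, each changing sign. The cause was not tested.

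Over all genes, 112 were higher and 266 lower. Without a low-count filter these were 194 and 439, and at an adjusted p of 0.1 they were 216 and 408. DESeq2 called 164 lower, and with 1 library left out 45 to 173 were higher and 118 to 389 lower. Among secreted ligands DESeq2 and limma-voom called 0, and 0 to 3 passed with 1 library left out. LAR-type phosphatases and their ligands had 1 call by limma-voom, 1 with robust = FALSE, 2 without a filter and 0 to 2 with 1 library left out. Splicing regulators had 1 call by DESeq2, without a filter, with the replicate block and at an adjusted p of 0.1. Intracellular partners, and likewise teneurins, FLRT and SynCAM proteins, had 0 to 1 with 1 library left out.

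The replicate numbers are not said to pair libraries, and same-numbered libraries did not deviate together (r = 0.03 across 16956 genes). With the replicate block, NRXN3 was -0.51 (adjusted p = 0.0109), and 153 genes were higher and 340 lower. Fits with 1 library in a group assume that it varies like the other group. Counting error weighs most on LRRTM4, with 309 to 429 counts.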
